A study of Mus musculus with 68 samples.

Results

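In spontaneous mammary tumours of a mouse backcross, a probe set for the microRNA gene Mir1931 on chromosome 10 stood at a high or a low level, with a gap between them. The tumours were divided at 4.2 on the log2 scale into 26 arrays with a high and 30 with a low Mir1931 level. All other genes were then compared between these groups. These 56 arrays, of 56 animals, are those of the series' 68 whose mean over the 3 control probe sets for 18S ribosomal RNA was below 8. The highest kept array stood at 6.84 and the lowest array left out at 8.97.

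All animals carried PyMT, the polyoma virus middle T antigen, under the MMTV promoter, which drives it in mammary epithelium. The strain background was ((NZB x PyMT) x FVB), that is, hybrids of NZB and the PyMT line crossed back to FVB. The labels place all 68 arrays, with 66 animal numbers, in 1 group. They give no genotype, age or treatment, so the Mir1931 groups are defined by a measured level alone. Total RNA of each tumour was hybridised to an Affymetrix array with 45101 probe sets, and all values are log2 values. Nothing in the labels says how the animals were related beyond the cross, and each array is taken as 1 tumour of 1 animal.

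A microRNA is cut from a hairpin in a longer transcript, and its mature strand pairs with messenger RNAs mainly through the seed, its bases 2 to 8. In a backcross each animal inherits long unbroken stretches of chromosome, so neighbouring loci tend to be inherited together. A variant that acts on the gene it lies in or beside can then give tumours that fall into separate levels of that gene. A short-oligonucleotide array can also read a sequence difference under its probes as a difference in level.

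The sequences of the gene that divides the tumours are shown because every comparison rests on it. They are RefSeq's on GRCm38.p6, both on the plus strand. The mature strand has 22 bases at chr10:93162879-93162900, and capitals mark its seed. The hairpin has 119 bases at chr10:93162785-93162903, and capitals mark the mature strand.
mmu-miR-1931: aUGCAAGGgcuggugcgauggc
Mir1931 hairpin: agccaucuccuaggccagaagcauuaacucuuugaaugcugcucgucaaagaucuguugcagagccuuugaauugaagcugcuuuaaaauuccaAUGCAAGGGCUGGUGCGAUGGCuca
Of 1679 mature names in the sequence table, 0 others had the seed UGCAAGG. The hairpin lies within the interval of Cdk17, a cyclin-dependent kinase gene, with Cfap54 on the proximal side and Elk3 on the distal side. The array holds 1 probe set annotated to Mir1931 alone. The labelling of total RNA for such arrays starts from polyadenylated transcripts, so the value does not stand for the mature strand. Which transcript the probes read was not tested.

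Mir1931 lay between 2.68 and 4.04 in the low group, with a median of 3.05 and a mean of 3.09 ± 0.33 (SD, n = 30). In the high group it lay between 4.64 and 6.23, with a median of 5.45 and a mean of 5.41 ± 0.50 (SD, n = 26). The 3 arrays nearest below the limit stood at 3.76, 3.84 and 4.04, and the 3 nearest above it at 4.64, 4.67 and 4.70. These values chose the groups and are given without a test.

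**Figure D1:**
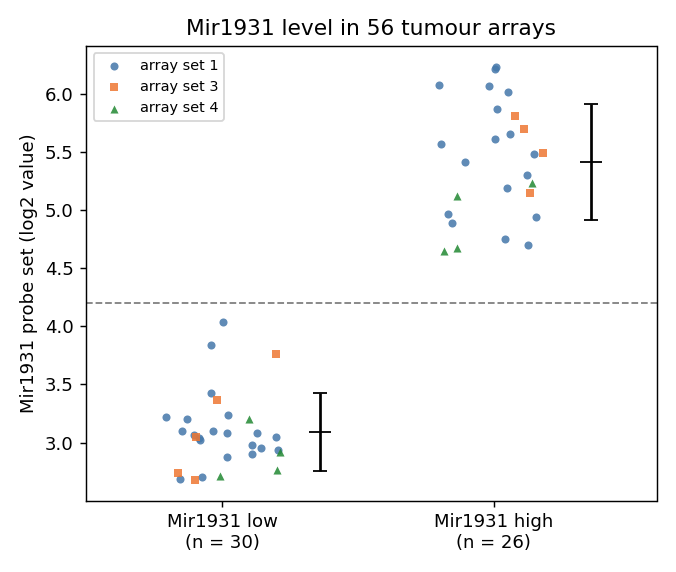
The Mir1931 probe set (log2 value) in the 30 low and 26 high arrays, 1 point an array, with the mean and SD beside each group and the limit of 4.2 as a dashed line. No array lies between 4.04 and 4.64, and array sets 1, 3 and 4 (colour and shape) occur on both sides of the limit.

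Both groups were spread over the array sets found in the values. Shared splits of many probe sets on other chromosomes divide the 56 arrays into 3 array sets, which the labels do not name. Set 1 held 18 high and 21 low arrays, set 3 held 4 and 5, and set 4 held 4 and 4. Set 3 is made up of the kept arrays whose titles end in R and array 4967. Set 4 holds only animal numbers from 4950 to 5000. What sets these arrays apart was not tested. The 12 arrays left out by the 18S limit form set 2. Krt8, a luminal keratin that marks mammary epithelium, had a mean of 12.44 ± 0.18 (SD, n = 26) in the high and 12.43 ± 0.22 (SD, n = 30) in the low group. Of the 11 luminal epithelium genes tested, 4 were higher and 7 lower where Mir1931 was high (median difference -0.02). In the comparison described below, 0 of them passed. The 3' minus 5' difference of Actb, which grows as RNA is degraded, was 0.811 ± 0.181 in the high and 0.944 ± 0.215 in the low group (two-sided permutation test, p = 0.0153, 0.0458 after Benjamini-Hochberg adjustment over 3 measures). The 18S level (permutation p = 0.550) and the Gapdh 3' minus 5' difference (permutation p = 0.118) did not pass. With the Actb difference as a covariate, added after the data were seen, the 5 genes within 10 Mb described next still passed.

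Between the groups, 8 of 12561 genes tested passed (0.0637%; limma with the array set as a block, Benjamini-Hochberg adjusted p under 0.05). All 8 were lower where Mir1931 was high, and all 8 lie on chromosome 10. Within 10 Mb of Mir1931, 5 of 79 genes passed: Polr3b, Washc3, Scyl2 and Actr6 on the proximal side and Fgd6 on the distal side. Elsewhere on chromosome 10, 3 of 516 passed, Mettl25, Krr1 and Atxn7l3b, all from 10 to 20 Mb on the distal side. On other chromosomes 0 of 11922 passed in limma, with 515 (4.32%) at an unadjusted p under 0.05.

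Scyl2 encodes a SCY1-like pseudokinase of clathrin-coated vesicles. Its log2 value ran from 7.28 over a median of 7.55 to 7.99 in the high group, and from 7.54 over 7.96 to 8.31 in the low group. The groups overlapped between 7.54 and 7.99, where 15 of the 26 high and 19 of the 30 low arrays lay. The mean was 7.57 ± 0.17 (SD, n = 26) against 7.96 ± 0.14 (SD, n = 30), a difference of -0.38 (SE 0.038, limma adjusted p = 8.95e-10). On the linear scale the low group stood 1.30 times as high. Within array sets 1, 3 and 4 the difference was -0.43, -0.37 and -0.15.

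Actr6 encodes an actin-related protein of the SRCAP chromatin-remodelling complex, which exchanges histone H2A.Z. It ran from 6.72 over a median of 7.17 to 7.72 in the high group, and from 7.14 over 7.55 to 7.89 in the low group. The groups overlapped between 7.14 and 7.72, where 40 of the 56 arrays lay. The difference was -0.35 (SE 0.039, limma adjusted p = 2.30e-08), and within array sets 1, 3 and 4 it was -0.36, -0.27 and -0.40.

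Fgd6, of a family of exchange factors for the small GTPase Cdc42, had the largest difference of the 8. It ran from 6.02 over a median of 6.60 to 7.31 in the high group, and from 6.73 over 7.08 to 7.58 in the low group. The groups overlapped between 6.73 and 7.31. The difference was -0.51 (SE 0.062, limma adjusted p = 2.01e-07), which makes the low group 1.42 times as high. Within array sets 1, 3 and 4 it was -0.58, -0.43 and -0.26.

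Polr3b encodes the second-largest subunit of RNA polymerase III, which transcribes transfer RNAs and 5S ribosomal RNA. Its mean was 6.89 ± 0.14 (SD, n = 26) in the high and 7.14 ± 0.16 (SD, n = 30) in the low group, a difference of -0.25 (SE 0.040, limma adjusted p = 0.000155). Its lowest values were alike, 6.61 in the high and 6.60 in the low group, while the medians were 6.89 and 7.14. Washc3 encodes a subunit of the WASH complex, which builds actin on endosomes. Its mean was 8.82 ± 0.12 against 9.02 ± 0.15, a difference of -0.21 (SE 0.034, limma adjusted p = 0.000164).

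Of the 3 genes beyond 10 Mb, Mettl25 and Atxn7l3b kept their calls in fewer alternatives than Krr1. Krr1, a factor of small ribosomal subunit assembly, ran from 8.50 over a median of 8.83 to 9.08 in the high and from 8.56 over 9.14 to 9.55 in the low group. Its difference was -0.23 (SE 0.038, limma adjusted p = 0.000302), but within array set 4 the groups differed by 0.0089, with 4 arrays on each side. Mettl25, a methyltransferase-like gene, had a mean of 6.56 ± 0.23 against 6.86 ± 0.22 and a difference of -0.30 (SE 0.056, limma adjusted p = 0.0038). Atxn7l3b, related to a subunit of the SAGA deubiquitinase module, differed by -0.19 (SE 0.040, limma adjusted p = 0.027). Krr1 and Atxn7l3b were positive, at 0.07 and 0.16, when the probe set with the largest SD stood for the gene. Mettl25 did not pass with the Actb 3' minus 5' difference as a covariate (-0.25, limma adjusted p = 0.108), and Atxn7l3b did not pass in 9 of 15 alternatives, among them without array 3351 (limma adjusted p = 0.0585).

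**Figure D2:**
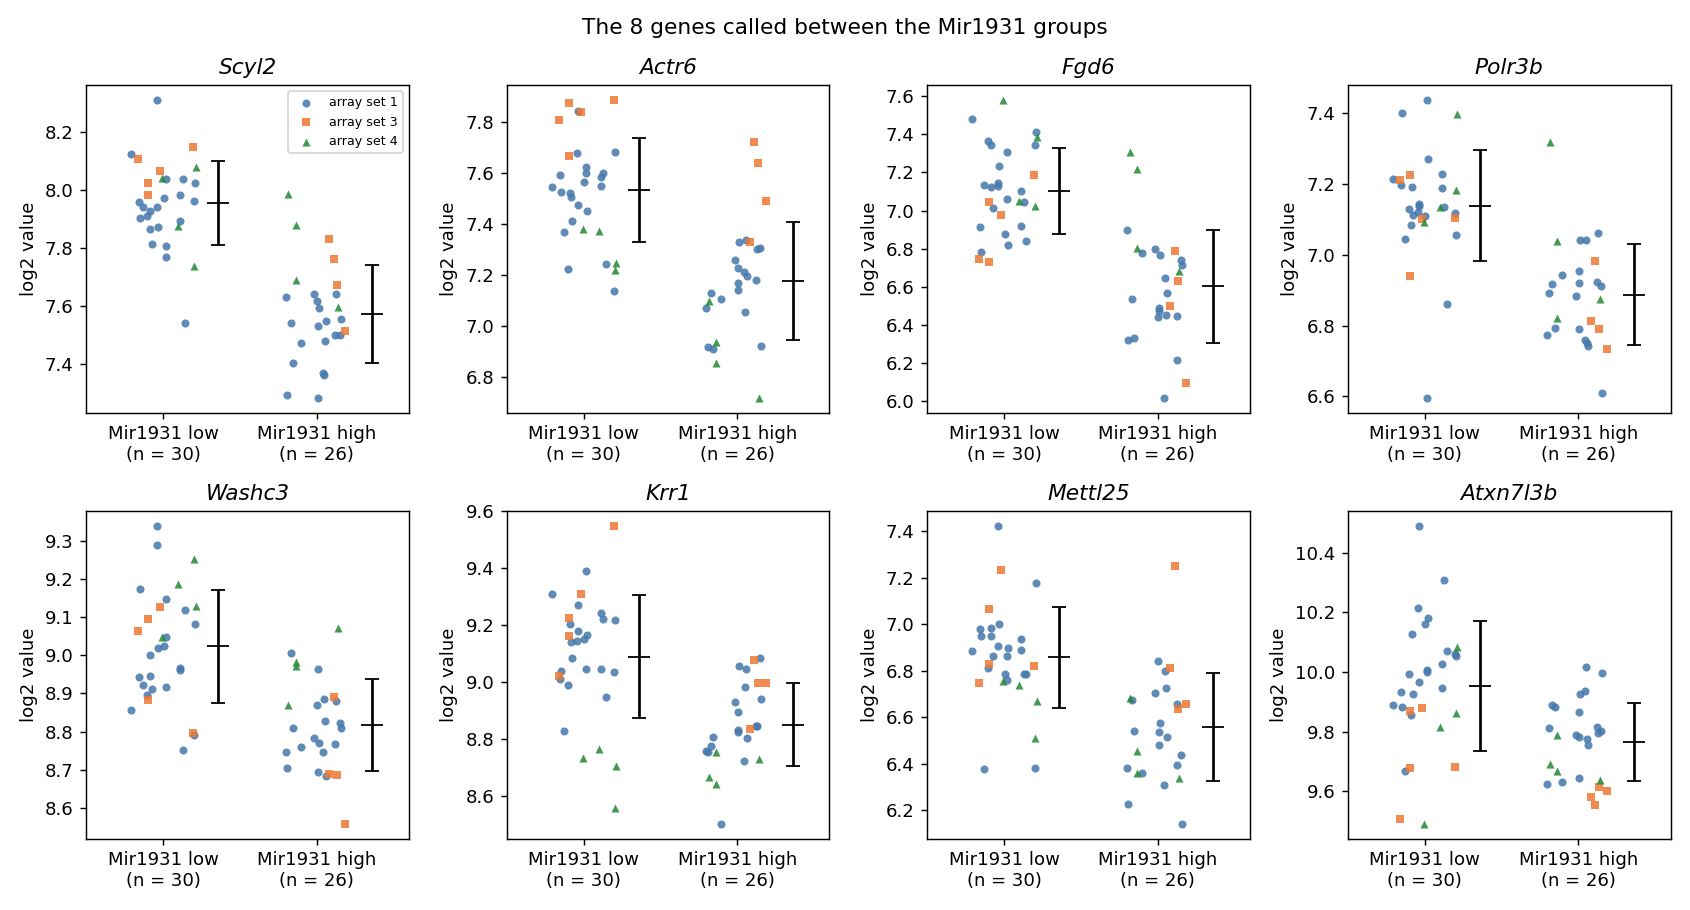
Log2 values of the 8 genes that passed in the 30 low and 26 high arrays, 1 panel a gene and 1 point an array, with mean and SD, coloured by array set. The high group is centred below the low group in every panel, most clearly for Scyl2 (means 7.57 and 7.96), and the groups overlap in every panel.

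The groups of the 8 genes overlapped in all cases, and 0 of 12561 genes had groups that did not overlap. To see which arrays did not follow their group, each array was placed on the nearer side of the middle between the group means, after taking out array set differences. This was done at 10 probe sets along the chromosome, chosen after their values were seen, and is a description only. For Washc3 and Vezt these were probe sets 1457628 and 1455472, described further on, and not those that stood for the genes. Probe set 1457628 goes against the direction of the Washc3 call. Of the 56 arrays, 23 lay with their own group at all 10, 16 departed at 1, and 1 array (5000, high) departed at 5. At the probe set for Ndufa12 described further on, 1 array lay with the other group, and at Mettl25 12 did. Arrays 3852R and 3855, both low, lay with their group at the 7 probe sets from Polr3b to Ndufa12 and with the high group at Mettl25, Krr1 and Atxn7l3b, the 3 farthest distal. Array 3289, also low, lay with the high group at 3 of the 4 proximal probe sets and with its own group at the 3 next on the distal side.

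Differences were more frequent near Mir1931 than over all genes. An unadjusted limma p under 0.05 was found for 16 of 79 genes within 10 Mb (20.3%), 43 of 516 beyond it on the chromosome (8.33%) and 578 of all 12561 (4.6%). By stretch, the shares were 19.1% of 47 genes up to 10 Mb proximal, 21.9% of 32 up to 10 Mb distal and 35.3% of 17 at 10 to 20 Mb distal. In the farthest proximal stretch, it was 3.10% of 129. The stretch at 10 to 20 Mb distal holds few genes, and its median absolute difference was 0.11 against 0.04 within 10 Mb as a whole. Of the 16 genes within 10 Mb, 11 were lower and 5 higher where Mir1931 was high.

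**Figure D3:**
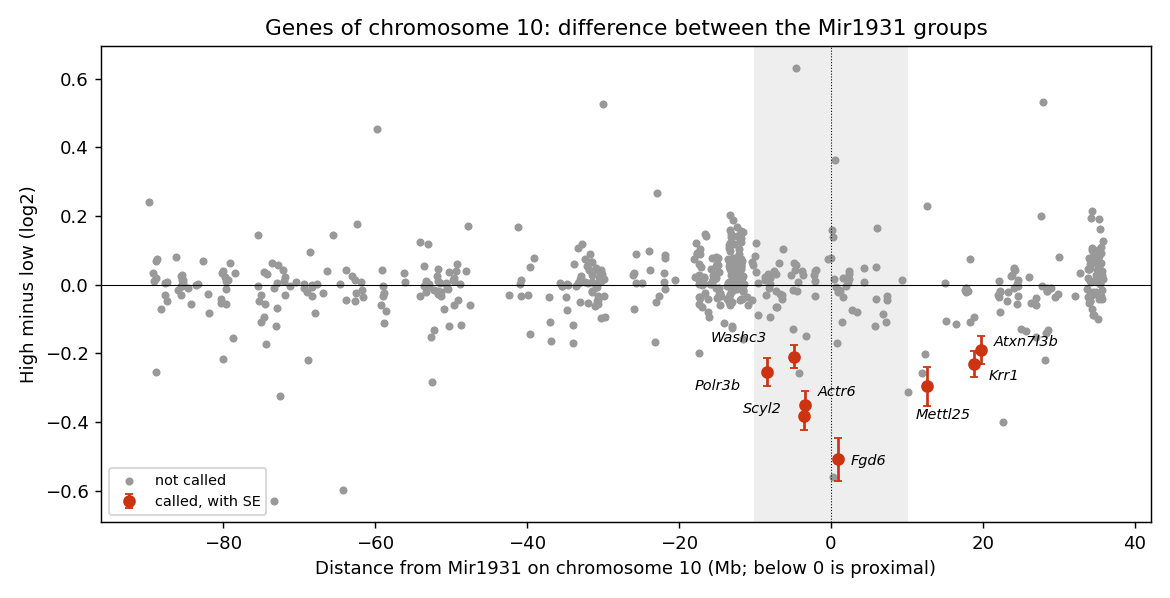
Difference between the Mir1931 groups (log2, high minus low) for each tested gene of chromosome 10 against its distance from Mir1931 in Mb, with proximal below 0 and the stretch within 10 Mb shaded. The 8 genes that passed (red, with SE) lie below 0, 5 of them in the shaded stretch and 3 at 10 to 20 Mb distal.

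Genes next to Mir1931 mostly did not pass. Within 1 Mb, 11 genes were tested, 7 had an unadjusted p under 0.05 and 1, Fgd6, passed. Cdk17, whose interval holds Mir1931, had a mean of 8.84 ± 0.12 in the high and 8.77 ± 0.18 in the low group, a difference of 0.08 (SE 0.035, limma adjusted p = 0.953). Elk3, an ETS transcription factor gene, differed by 0.16 (SE 0.046, limma adjusted p = 0.836), and Nedd1, whose protein brings gamma-tubulin to the spindle, by 0.07 (limma adjusted p = 0.953). Lta4h, the leukotriene A4 hydrolase, differed by 0.14 (limma adjusted p = 0.153). Hal, the histidine ammonia-lyase, had a mean of 6.10 ± 0.45 against 6.66 ± 0.56, a difference of -0.56 (SE 0.14, limma adjusted p = 0.153). Both passed with scores for muscle, fat, fibroblast and T cell genes as covariates, at 0.15 (limma adjusted p = 0.0327) and -0.66 (limma adjusted p = 6.16e-06). Vezt, an adherens junction gene, differed by -0.17 (limma adjusted p = 0.155). It passed without the arrays within 0.5 of the Mir1931 limit (-0.19, limma adjusted p = 0.0386). In all 68 arrays, where another probe set stood for it, Vezt passed at -0.55 (limma adjusted p = 5.43e-15). It also passed with the probe set with the largest SD, again another one (-0.49, limma adjusted p = 1.24e-10). Ntn4, a netrin, differed by 0.36 (limma adjusted p = 0.953). Snrpf, Metap2 and Nr2c1 differed by 0.02, -0.007 and -0.02.

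Probe sets of the same gene disagreed. In a fit over 45036 probe sets, added after the data were seen, 20 passed (0.0444%; limma adjusted p under 0.05), 16 of them with a gene name. These 16 belong to 13 genes, all on chromosome 10, and 12 lie within 10 Mb. The other 4 have no gene and no chromosome here, so where they lie is unknown. Of the 16 with a place, 0 lie on another chromosome. Of the 16, 12 were lower and 4 higher where Mir1931 was high.

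The smallest p belonged to Ndufa12, an accessory subunit of mitochondrial complex I. Its probe set 1455806 ran from 10.49 over a median of 10.69 to 10.94 in the high group, and from 9.98 over 10.29 to 10.70 in the low group. The groups overlapped only between 10.49 and 10.70. The difference was 0.41 (SE 0.032, limma adjusted p = 2.02e-13). The other 3 probe sets of Ndufa12 differed by -0.02, -0.10 and 0.12 and did not pass.

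Washc3 had probe sets that passed in both directions. Probe set 1457628 had a mean of 4.72 ± 0.25 in the high and 3.78 ± 0.53 in the low group, a difference of 0.95 (SE 0.11, limma adjusted p = 1.24e-07). Probe set 1452721, which stands for the gene above, differed by -0.21, and the other two by 0.05 each. Vezt also passed both ways, at -0.49 for probe set 1455472 (means 6.49 and 6.99, limma adjusted p = 1.36e-10) and at 0.18 for probe set 1438881 (means 2.85 and 2.66, limma adjusted p = 0.0150).

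For Scyl2 1 of 4 probe sets passed, and the others differed by -0.09, -0.13 and 0.02. Fgd6 passed with both probe sets, at -0.51 and -0.19. Elk3 passed with 1 of 4, at 0.24 (limma adjusted p = 0.0249), and its others differed by 0.15, -0.18 and 0.16. Polr3b passed with 1 of 3, and its others differed by -0.04 and -0.18. Krr1 passed with 1 of 4 and Atxn7l3b with 1 of 5. Actr6 and Mettl25 have 1 probe set each, so no other could be set beside it. Bbs10, a chaperonin-like gene of the Bardet-Biedl complex, passed with 1 of 2, at -0.25 (limma adjusted p = 0.0430). 1810014B01Rik passed with 1 of 4, at -0.40 (limma adjusted p = 0.0285), and its others differed by -0.04, -0.09 and -0.19. A gene's level and a sequence difference under its probes cannot be told apart by 1 probe set. Probe sequences were not used here, so their part in these differences was not tested.

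**Figure D4:**
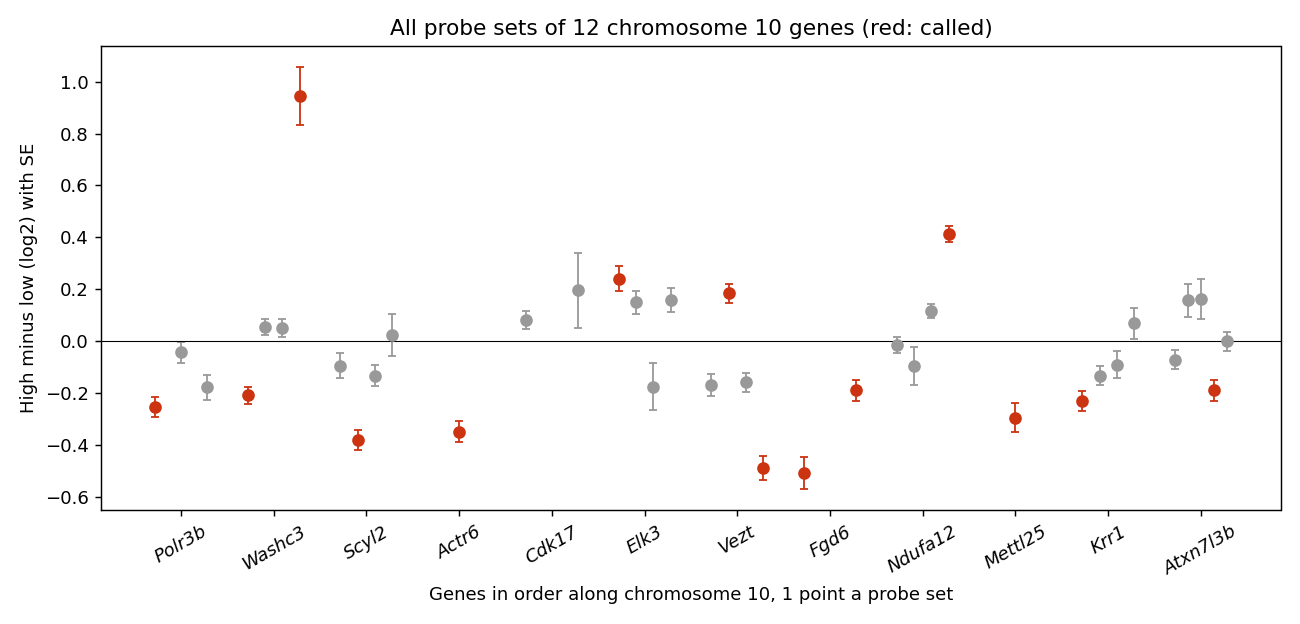
Difference between the Mir1931 groups (log2, high minus low, with SE) for each probe set of 12 genes in their order along chromosome 10 and red where it passed. Washc3 and Vezt have red points on both sides of 0, and Ndufa12 has 1 red point at 0.41 beside 3 grey ones.

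The 12 arrays left out by the 18S limit allow the same probe sets to be read in other animals. After removing 2 whose numbers occur among the 56, 10 arrays remained. They split by least squares on Mir1931 into 6 high (4.65 to 5.86) and 4 low (2.42 to 3.40). The 4 low arrays all have animal numbers below 4000, while the high arrays 4946, 4963 and 4973 lie above it. Number range is thus partly confounded with this split, and no covariate was used in these arrays. All 8 genes had a lower mean in the high arrays, where 64.1% of 12782 genes did. For 6 of the 8 a two-sided exact permutation test gave p under 0.05, with 0.00476 the smallest p that 6 against 4 allows. The share of all genes with such a p was not computed, so this count has no background to be set against. limma over all genes passed 0 of 12782, with 972 at an unadjusted p under 0.05.

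Scyl2 stood at 7.20, 7.26, 7.30, 7.33, 7.42 and 7.51 in the 6 high arrays and at 7.82, 7.85, 8.03 and 8.05 in the 4 low arrays. These groups did not overlap, as for 1.87% of genes in these arrays. The difference was -0.60 (exact permutation p = 0.00476; limma adjusted p = 0.377). Actr6 stood between 6.67 and 7.25 in the high arrays and between 7.18 and 7.50 in the low arrays, a difference of -0.41 (exact permutation p = 0.0143). Polr3b differed by -0.43 and Krr1 by -0.33, each with an exact permutation p of 0.0238. Mettl25 differed by -0.55 (exact permutation p = 0.0286) and Atxn7l3b by -0.24 (exact permutation p = 0.0429). Fgd6 at -0.38 (exact permutation p = 0.0905) and Washc3 at -0.21 (exact permutation p = 0.110) did not pass.

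Of the 8 other named probe sets that passed in the 56 arrays, 6 kept their direction and 5 of these had an exact permutation p under 0.05. The share of all probe sets with such a p was not computed either. Ndufa12 probe set 1455806 differed by 0.64, Washc3 probe set 1457628 by 0.96 and Vezt probe set 1455472 by -0.78, each without overlap and with an exact permutation p of 0.00476. Over all 45037 probe sets in these arrays, 53.1% had a lower and 46.9% a higher mean where Mir1931 was high, and in 1.36% the groups did not overlap. Elk3 probe set 1417662 differed by -0.21 (exact permutation p = 0.405) and Fgd6 probe set 1435467 by 0.03 (exact permutation p = 0.719), both against their direction in the 56.

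**Figure D5:**
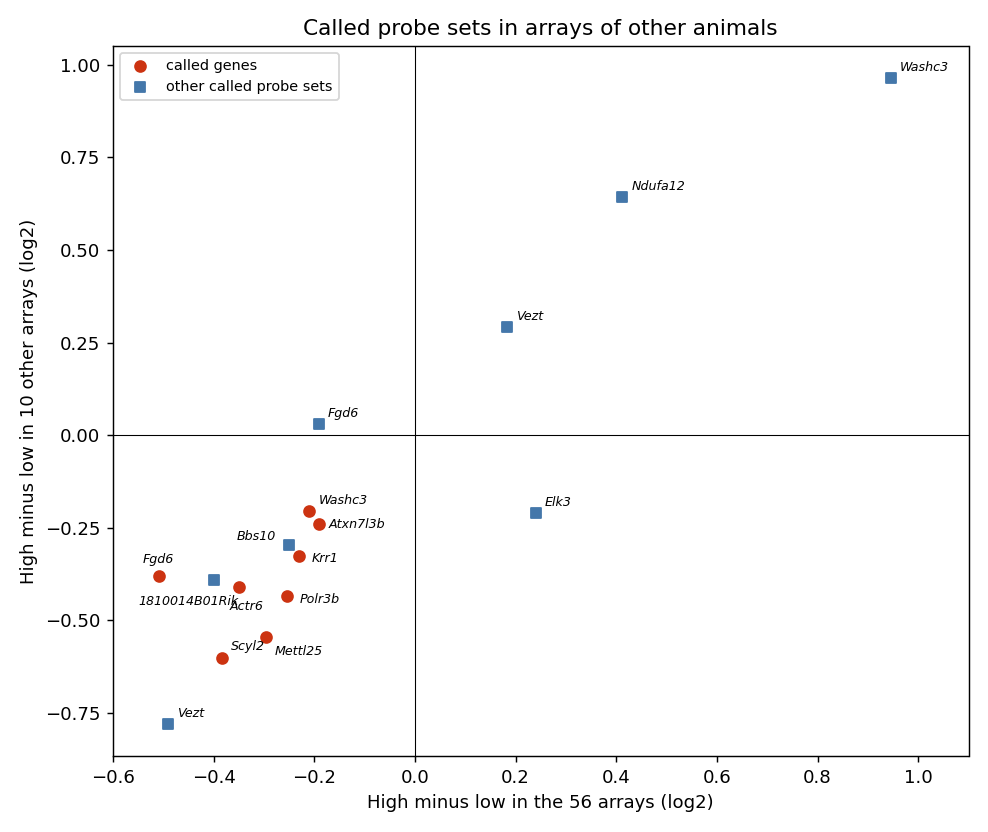
Difference between high and low Mir1931 arrays (log2) in the 56 arrays (horizontal) and in 10 arrays of other animals (vertical), for the 8 genes that passed (circles) and 8 further probe sets that passed (squares). All circles lie below 0 on both axes, while Elk3 and 1 probe set of Fgd6 lie on opposite sides of 0.

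For the 2 animal numbers with 2 arrays, the array without the suffix R was set against the group means of the 56 arrays and the array with it against those of the 10 left-out arrays. For 3296, Mir1931 stood at 5.19 in the array without the suffix R and lay above the limit in the array with it too. In these arrays 4 and 6 of the 8 genes lay nearer the high group. For 3351, Mir1931 stood at 6.07 without and 3.40 with the suffix, and 7 and 2 of the 8 genes lay nearer the high group. Scyl2, at 7.63 in both arrays of 3351, and Actr6, at 7.07 and 7.11, lay nearer the high group in both, and Fgd6 nearer the low group in both. With the suffix, the side of Scyl2 was close to a tie. Its value lay between the highest high left-out array (7.51) and the lowest low one (7.82). Polr3b stood at 6.77 and 6.78 and changed sides only because the reference means differ.

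Relations of the 8 genes to the Mir1931 level within a group were computed next. They used the values as deposited and permuted over all arrays of a group, so array set differences were not taken out. Of 16 relations, 8 genes in each of 2 groups, 0 passed after Benjamini-Hochberg adjustment by Pearson's r or Spearman's rho (permutation tests). The largest r was that of Krr1 in the low group (r = 0.413, permutation p = 0.0238, adjusted 0.357, with rho = 0.398). Without the 2 arrays farthest from the median Mir1931 level, r was 0.507. The low arrays of array set 4 had the lowest Krr1 values of their group, 8.56 to 8.76. The part of array set in these relations was not tested. The largest rho was that of Actr6 in the high group (rho = 0.409, permutation p = 0.0393, adjusted 0.272; r = 0.317), and r was 0.336 without the 2 farthest arrays.

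No gene on another chromosome passed. The nearest was Bcl2, an inhibitor of apoptosis, with a mean of 8.29 ± 0.30 in the high and 8.61 ± 0.27 in the low group (difference -0.32, SE 0.075, limma adjusted p = 0.118). Chd3, a chromatin remodeller of the NuRD complex, differed by 0.23 (limma adjusted p = 0.249), and Rbm38, an RNA-binding target of p53, by 0.22 (limma adjusted p = 0.529). Eif2ak1 differed by 0.12, Dnajb5 by 0.22 and Zfp113 by -0.09, each with an adjusted p of at least 0.836. Fam110c, Hcar2, 2310010J17Rik and Neurl2 differed by -0.13, -0.26, -0.19 and 0.17 (limma adjusted p = 0.953). The median half-width of the 95% interval of a difference was 0.10 on these chromosomes, and 0.32 at the 95th percentile. These intervals are not adjusted for the number of genes, and an adjusted call needs a larger difference, so differences of the size of Washc3 or Atxn7l3b could be missed there.

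Of 215 tested genes in 20 lists of cell types, processes and loci, 0 passed in limma and 6 had an unadjusted p under 0.05. Over all 12561 genes, 578 (4.6%) had such a p. The median of all genes was 0.0048. Skeletal muscle genes had the largest list median, 1.01: Myh4, a fast myosin, had means of 9.26 ± 2.52 and 8.01 ± 2.93, a difference of 1.27 with a 95% interval of -0.16 to 2.69. Tnnt3, a fast troponin T, differed by 1.16 (0.026 to 2.30) and Ckm, the muscle creatine kinase, by 1.13 (0.055 to 2.20), unadjusted intervals that leave out 0. Of the 6 genes with an unadjusted p under 0.05, 4 were among the 12 muscle genes, each with a limma adjusted p of 0.953. All 12 muscle genes had a positive difference, and the mean level of the list ran from 4.41 to 12.14 in the high and from 4.67 to 10.50 in the low arrays. In such bulk samples fewer cells of a type and less RNA per cell cannot be told apart. With a muscle score among the covariates the 8 genes still passed. Interferon response genes had a median of -0.24, with 12 of 13 negative, and Ifit1 differed by -0.40 (95% interval -0.85 to 0.056). B and plasma cell genes had a median of 0.30, with 6 of 6 positive, and Cd79b differed by 0.42 (-0.052 to 0.89). In these lists 0 genes had an unadjusted limma p under 0.05.

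The metastasis modifiers, genes reported to alter metastasis in mice or to suppress it, had a median of 0.04 over 17 tested. On chromosome 10 they hold Cnot2, of the CCR4-NOT deadenylase, at 8.89 ± 0.15 and 8.92 ± 0.18 (difference -0.02, interval -0.093 to 0.053). They also hold Tspan8, a tetraspanin, at 8.85 ± 0.94 and 9.26 ± 0.92 (difference -0.40, interval -0.89 to 0.091). Sipa1, a Rap GTPase-activating gene, differed by 0.10 (unadjusted limma p = 0.0223, adjusted 0.953). The miRNA pathway, the proteins that cut and load microRNAs, had a median of -0.03 over 13 genes, and of these Tarbp2 had an unadjusted limma p of 0.0344.

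The 12 loci on other chromosomes that were listed as strain-split had adjusted limma p-values of at least 0.953. The list was drawn up with earlier results of these data known, and the labels give no genotype at these loci. The Mir1931 groups differed by -0.79 at BC018473 (SE 1.12), 0.34 at H2-Eb1, 0.45 at D17H6S56E-5, 0.33 at Tnfsf13os and -0.34 at Zfp979. They differed by 0.19 at Rbm45, 0.13 at AI506816, 0.11 at Rab1b, -0.09 at Amhr2, 0.06 at Apobec3, 0.05 at Aqr and 0.05 at Ifi202b.

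Whether the Mir1931 difference depended on the animal number range, below or above 4000, was tested as an interaction. It passed for 0 of 12561 genes in limma, with 391 at an unadjusted p under 0.05. Scyl2 differed by -0.44 in the lower and -0.21 in the upper range (unadjusted interaction p = 0.0150, limma adjusted p = 0.956).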

How the data were processed

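Total RNA was extracted with Trizol and RNeasy columns and labelled with biotin, per the labels. The authors processed the arrays with RMA, per the submitters' processing notes; the deposited numbers run from 1.68 to 14.57 and are taken as log2 values. Its version and settings are not given in the sources used here. RMA normalises between arrays, and whether all were normalised together is not given. Gene names came from the platform annotation (34958 probe sets with 1 gene, 932 with several, 9211 not listed). Since no build is named for the array, the RefSeq gene table (GRCm38.p6) served for names, gene order and distance windows.

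The probe set of highest mean stood for a gene, and 12561 genes with a 95th percentile above the median of all values (5.42) were tested. Differences are high minus low from limma 3.58.1 (lmFit, eBayes; R 4.3.3) with array set as a block and Benjamini-Hochberg adjustment at 0.05, while means and SDs are of the values as deposited. Array sets are splits of arrays shared exactly by 20 or more probe sets that lie on 10 or more chromosomes, searched without chromosome 10. The script was tested on simulated data. Permutation tests with 10 or more values a group used 100000 draws. Nothing says that the samples are independent beyond their animal numbers. The number of arrays limits the precision.

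The members and gene lists were chosen with earlier results of these data known. Named are all genes that passed, those within 1 Mb, the 10 smallest p on other chromosomes, the loci listed as strain-split, and list members with the largest differences. Genes named outside this rule were chosen after their values were seen. The closing section gives the alternatives.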

Additional observations from a re-analysis of the deposited data

Results flagged for a closer look

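Of 18 groups of the 10 left-out arrays (8 genes and Mir1931, high and low), 2 held an array far from the others, where chance gives about 1 in 20. Fgd6 stood at 6.55 in array 4946, a high array, against 5.63 to 5.80 in the other 5, and the gap was 0.818 of the group's range. Mettl25 stood at 4.49 in array 4963, also high, against 5.16 to 5.43 in the other 5, and the gap was 0.713 of the range.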

How the results depend on the processing

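The comparison of the Mir1931 groups was repeated under 15 alternatives, 2 of them added after the data were seen (without array 3351, and the Actb 3' minus 5' difference as a covariate). No gene on another chromosome passed under any of them. Within 10 Mb, the count of 5 became 3 with the probe set with the largest SD for each gene (2 of them shared with the 5) and lay between 5 and 7 otherwise. On chromosome 10 beyond 10 Mb, the count of 3 became 1 with the Mir1931 level as a continuous covariate, 1 with the probe set with the largest SD and 1 with the Actb difference as a covariate. With the largest-SD probe set Krr1 turned to 0.068 and Atxn7l3b to 0.16. Actr6 passed in 15 of 15, and Fgd6, Polr3b and Krr1 in 14 of 15. Actr6 and Mettl25 have only 1 probe set, so the largest-SD alternative could not change theirs. Fgd6 kept the same probe set there. Scyl2 and Washc3 passed in all 14 in which they were tested. Neither was tested with the largest-SD probe set, which did not reach the expression filter. That probe set differed by 0.02 for Scyl2 and, against the direction of the call, by 0.95 for Washc3. Mettl25 passed in 13 and Atxn7l3b in 6. Fgd6 was lost in all 68 arrays (-0.16, limma adjusted p = 0.0515), where another probe set stood for it. Polr3b was lost with the largest-SD probe set (limma adjusted p = 0.685). Atxn7l3b had limma adjusted p-values of 0.0556 to 0.785 where it was lost. Of the genes that did not pass, Vezt passed in 3 alternatives, not always with the same probe set, and Lta4h and Hal in 1 each. No paired analysis was possible because the labels give 1 group with no replicate numbers.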
